A study of Bos taurus with 2 samples.

Results

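The sequences described here are the predicted miRNAs of bovine lung: rows of a small RNA table whose name begins with PC- and carries no species. Rows were kept when the sequence was at least 18 nt long and the reads summed over both libraries reached 10. This left 88 rows, of 975 with such a name and of 2271 in the whole table. Of the names, 7 stood on 2 rows each with equal values, so the 88 rows held 81 names, each with its own sequence. The members were thus chosen by their reads in these libraries, and their levels are given as a description. The sources used here do not say how the authors' software predicted them. The letters 5p and 3p in a name are read as the arm of the predicted hairpin.

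The collapsed-lung library was made from 1 pool of total RNA of collapsed lungs, and the normal-lung library from 1 pool of normal lungs. Each pool combined 4 neonatal cows at 500 ng per sample, and the series describes its animals as cloned or normal. The labels of the samples give only the phenotype, so that matching the collapsed phenotype to the clones rests on the series text. On that reading, the collapsed-lung pool came from clones and the normal-lung pool from normal cows. Cloning and collapse then coincide in these libraries, and their separate parts in any difference below were not tested. The words collapsed and normal lung name the libraries and not a cause. The sources used here do not give breed, sex or the donor cells of the clones. With 1 pooled library per phenotype the spread between cows was not measured, no test between phenotypes is given, and each interval below covers counting error only.

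MicroRNAs are cut from hairpin transcripts by the nucleases Drosha and Dicer, which leaves a short duplex of a 5p and a 3p strand. The strand loaded into an Argonaute protein finds its target mRNAs mainly through its seed, the bases near its 5′ end, and lowers their output. A predicted miRNA is a sequence that an algorithm places in a possible hairpin, and reads alone do not show that Dicer made it. miR-2284 and miR-2285 are large families of cattle and other ruminants with many similar copies in the genome, which makes new relatives of them hard to tell apart.

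The sequences of 5 of the 8 members called different between the libraries come first, since they carry the comparison. They are printed 5′ to 3′ as deposited, with T for U, and the capitals mark the seed (bases 2 to 8). The lines begin with 2 members of one seed that were higher in collapsed lung, followed by the named sequence that has this seed too, and then by the 3 members that were lower in collapsed lung.
PC-3p-3264_123: gAAATCCGaacgaactttttgga
PC-3p-30406_16: gAAATCCGaacgaactttttga
bta-mir-2284aa-3-p3_1ss1AG and bta-mir-2284z-6-p3_1ss8AG: gAAATCCGaacgaactttttgg
PC-3p-22666_19: aAAAACTAgaatgaactttttg
PC-3p-30764_14: aTCCAAGTgaactttttggct
PC-3p-33636_14: aAACTCAAacaaactttttggt

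In the table as a whole, the collapsed-lung library held 2822876 reads and the normal-lung library 4550911, so that levels of scarce sequences are better measured in normal lung. Levels are given as reads per 1000000 of a library's reads (RPM). A count of 3 reads, the floor used here, stood at 1.06 RPM in collapsed lung and at 0.659 RPM in normal lung. Markers of lung cell types were present in both: miR-126 of endothelium stood at 48683 RPM in collapsed and 46324 RPM in normal lung, and 3 of 3 smooth muscle and fibroblast markers summed to 186119 RPM in collapsed and 190392 RPM in normal lung. Within that sum miR-143, the largest part, was lower in collapsed lung (135034 RPM, against 146468 RPM in normal lung). There miR-199a was higher in collapsed lung (46547 RPM, against 37153 RPM in normal lung) and miR-145 lower (4538 RPM, against 6771 RPM in normal lung). The 5 airway epithelium markers summed to 6481 RPM in collapsed lung and 11387 RPM in normal lung, with most of the gap in miR-34c, at 2105 RPM in collapsed and 6596 RPM in normal lung, while miR-200b stood at 2616 RPM in collapsed and 2601 RPM in normal lung. The 3 leukocyte markers summed to 2370 RPM in collapsed and 2984 RPM in normal lung. Red cell markers (3 of 3 found) gave 2862 RPM in collapsed and 2988 RPM in normal lung, and striated muscle markers (2 of 3 found) 46.4 RPM in collapsed and 58.4 RPM in normal lung. The liver marker miR-122 stood at 17.4 RPM in collapsed and 34.3 RPM in normal lung. The part of these differences in the results on predicted miRNAs was not tested. In pooled tissue RNA, fewer cells of a type and less RNA per cell cannot be told apart.

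Predicted miRNAs were a very small part of both libraries. The 88 rows held 2703 reads in collapsed lung and 3385 reads in normal lung. This was 0.0958% of the collapsed-lung reads (exact Clopper-Pearson 95% interval 0.0922 to 0.0994%) and 0.0744% of the normal-lung reads (0.0719 to 0.0769%), while rows with bovine miRNA names held 97.7% in collapsed and 97.8% in normal lung. These shares count repeated names on each of their rows. Counted once per name, as in the sums by group below, the 81 names held 2499 reads in collapsed lung and 3046.5 in normal lung. The reads were few per sequence: the median member had 17.5 reads over both libraries, the range was 10 to 893.5, and 71 of the 81 names had under 100. The median counting interval therefore spanned 1.63 on the log2 scale to either side of the ratio, against 0.54 for all 813 rows of the table that met the same minimums. Every one of the 88 rows had reads in collapsed lung, and 1 row had none in normal lung.

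Few of the predicted miRNAs were called different, and their shares lay near the background. A call needed a ratio of collapsed to normal lung of 2 or more, or of 0.5 or less, together with a 95% interval without 1. Of the 88 rows, 5 were called higher in collapsed lung (5.68%) and 3 lower (3.41%). Among all 813 rows that met the minimums, 4.43% were called higher, 3.81% lower and 8.24% either way, and among the 725 rows with established names 4.28%, 3.86% and 8.14%. The 88 rows' median log2 ratio was 0.10 (quartiles -0.65 and 0.66), beside 0.06 for all 813 rows and 0.05 for those with established names, and it was -0.05 with median-of-ratios scaling, which shifts every row by -0.16. The intervals of 21 of the 88 rows left out 1, so that most ratios could not be told from 1 at this depth.

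**Figure D1:**
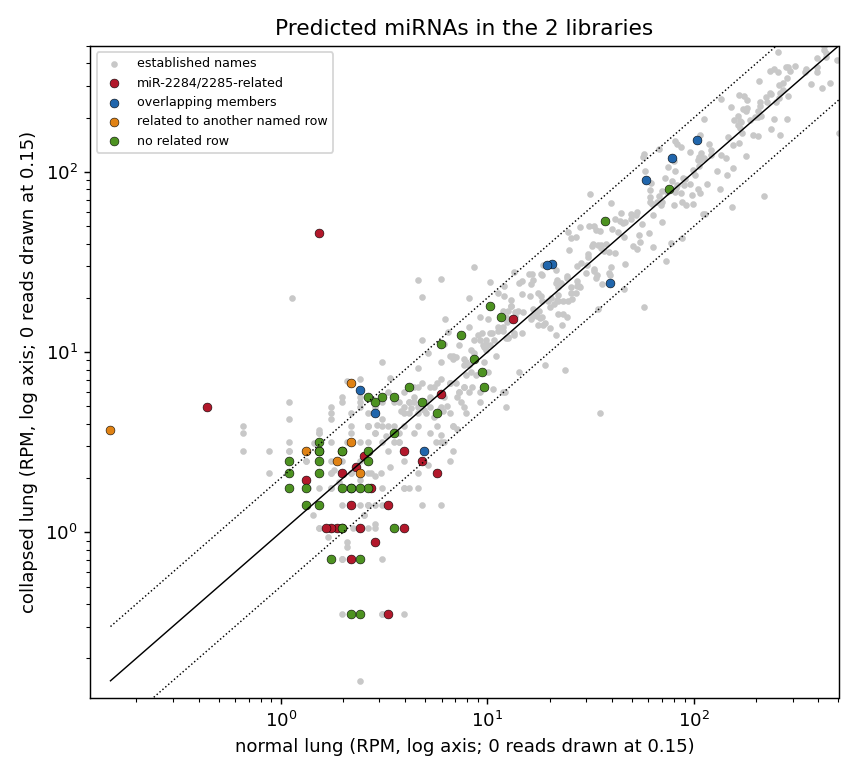
Level of each sequence in collapsed lung (y axis, RPM, log scale) against normal lung (x axis, RPM, log scale), for names with at least 10 reads and at most 500 RPM on both axes. Coloured points are the 81 predicted miRNAs by sequence group, grey points are established names, the solid line marks a ratio of 1 and the dotted lines a ratio of 2 in either direction. Most members lie between the dotted lines, and PC-3p-3264_123, at 45.7 RPM in collapsed and 1.54 RPM in normal lung, lies farthest above them.

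By sequence the 81 names fall into 4 groups, which were drawn up after the values were seen. A run of at least 12 shared bases with a row named miR-2284 or miR-2285, on the same or the complementary strand, placed 23 members with these families. Another 7 shared such a run with a different named row, 10 overlapped another member only, and 41 had no such relative in the table. Members of a group can share reads where their sequences are nearly alike, so that they are not independent measurements.

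The 23 members related to miR-2284 and miR-2285 differed from the other members in direction. Their median log2 ratio was -0.63, with 17 below 0 and 6 above, against a median of 0.49 for the other 58 members, with 19 below 0 and 39 above. The named rows of the families lay on the same side, though repeated rows weigh in their medians. The 31 rows named miR-2284, which hold 15 sequences, had a median of -0.34. The 44 rows named miR-2285, which hold 28 sequences, had a median of -0.42, beside 0.09 for 407 other bovine rows. Counted once per name, the 45 names of these families had a median of -0.35, beside 0.09 for 371 other bovine names. Of the 23, 2 were called higher and 3 lower, and of the other 58, 3 were called higher and 0 lower. These counts are small, beside 4.43% called higher and 3.81% called lower among all 813 rows. Of the 75 rows named miR-2284 or miR-2285, 6 were called higher and 6 lower. Repeated rows weigh in these counts too, and the 2 miR-2284 rows called higher hold the same sequence. Among the 50 other members with no more reads than the most abundant of the 23, the median was 0.42. The medians are a description, since the groups were formed with the ratios known, and they are the same with PC-3p-76797_4, at 0 reads in normal lung, set to its lower bound.

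Within the 23, a pair stood against the rest. PC-3p-3264_123, the most abundant of them, had 129 reads in collapsed lung (45.7 RPM) and 7 in normal lung (1.54 RPM). It was 29.7-fold higher in collapsed lung (95% interval 14.0 to 75.4). PC-3p-30406_16 had 14 reads in collapsed lung and 2 in normal lung, 11.3-fold higher (2.59 to 102). These 2 members differ from each other only at their 3′ end and share the seed AAATCCG, which no other member has.

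The same seed stood on 2 named rows of the table, both with the sequence printed above beside these members. The endings of their names are read as a substitution against the database sequence, at base 1 in the first and at base 8, inside the seed, in the second. For the second row it is thus the sequenced variant, and not shown to be the annotated miRNA, that has this seed. In the first row the substitution lies outside the seed, so that on this reading its database sequence has the seed too. The row bta-mir-2284aa-3-p3_1ss1AG had 72.0 reads in collapsed lung and 27.1 in normal lung, 4.28-fold higher in collapsed lung (2.73 to 6.96). The row bta-mir-2284z-6-p3_1ss8AG had 56.6 reads in collapsed lung and 5.14 in normal lung, 17.8-fold higher in collapsed lung (7.43 to 58.8). All 4 rows with this seed were thus called higher in collapsed lung. The named rows hold one sequence under different names with unequal fractional reads, so that the split between them is the authors' and their separate ratios are uncertain. Each of the members differs from this sequence by 1 base at the 3′ end, so that the division of reads between members and named rows is uncertain too.

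**Figure D2:**
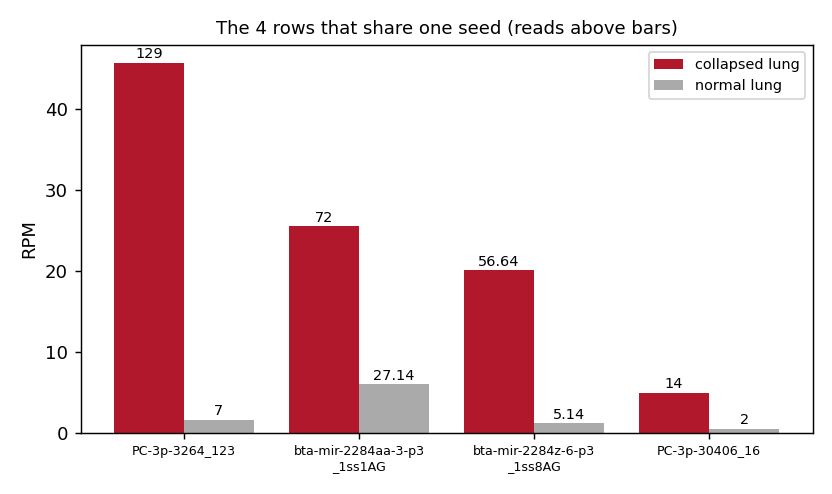
Level in RPM (y axis, linear from 0) of the 4 rows that carry the seed AAATCCG, with red bars for collapsed lung, grey bars for normal lung and the deposited reads above each bar; there is 1 library per bar and no error. All 4 rows are higher in collapsed lung, with 129 reads against 7 for PC-3p-3264_123.

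Without that pair, the remaining 21 members of the group leaned the other way. They summed to 142.5 reads in collapsed lung (50.5 RPM) and 328 in normal lung (72.1 RPM). Their median log2 ratio was -0.73, with 3 called lower. That 0 were called higher follows from leaving out the pair, the only 2 of the 23 so called. With the pair, the 23 summed to 285.5 reads in collapsed lung (101 RPM) and 337 in normal lung (74.1 RPM). PC-3p-22666_19 had 6 reads in collapsed lung and 26 in normal lung, 2.69-fold lower in collapsed lung (1.08 to 7.99). PC-3p-30764_14 had 3 reads in collapsed lung and 18 in normal lung, 3.72-fold lower (1.09 to 19.7). PC-3p-33636_14 had 1 reads in collapsed lung and 15 in normal lung, 9.30-fold lower (1.43 to 392). These 3 calls each rest on at most 6 reads in collapsed lung, and the near bounds of the first and second lie close to 1.

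The other members of the group that share a seed with another of the 23 also lay below 0. PC-3p-49650_8, which has the seed AAAACTA of PC-3p-22666_19, had 8 reads in collapsed lung and 18 in normal lung (log2 ratio -0.48), and was not called. PC-3p-30374_17 and PC-3p-36687_11 share the seed AACCCGA with bta-miR-2285o and lay at log2 ratios of -1.22 and -1.63. The first had 4 reads in collapsed lung and 15 in normal lung, and the second 2 in collapsed and 10 in normal lung. PC-5p-27512_16 and PC-5p-27000_17, with the seed AAAAGTT that 10 named sequences also have, stood at -0.63 and -0.81. PC-3p-21826_21 has another seed and repeats PC-3p-30764_14 without its first base, with 7 reads in collapsed lung and 22 in normal lung (log2 ratio -0.96). None of these passed the call.

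The most abundant members of the group after PC-3p-3264_123 could not be told from a ratio of 1. PC-5p-4514_91 had 43 reads in collapsed lung and 60.5 in normal lung, a ratio of 1.15 (0.751 to 1.71). PC-3p-23727_21 followed with 16.5 reads in collapsed lung and 27 in normal lung, a ratio of 0.985 (0.519 to 1.93).

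The letters of the 23 were those of the named families, which the rule that grouped them in part fixes. They were mostly 3p sequences, 19 against 4 on the 5p arm. An A stood at the first base in 17 of 23 (73.9%), against 32.3% of the 647 established sequences, and their median GC share was 31.8% against 45.8%. Sequences named miR-2284 and miR-2285 began with A in 66.7% and 85.7% and had median GC shares of 36.4% and 32.6%. The 9 letters GAACTTTTT, read on the deposited strand, stood in 12 of the 23 and in no member outside them, beside 14 of 647 established sequences (2.16%), all of them named miR-2284 or miR-2285. In 7 of the 23 the run shared with a named row was 20 bases or longer. The seed was that of some named row in 13 of the 23. To show the letters, capitals in the next lines mark GAACTTTTT in members whose seed a named row has.
PC-3p-30695_14: aaaatctgaatGAACTTTTTgga
PC-3p-97881_4: aaaacctgaatGAACTTTTTggaaa
PC-3p-29124_14: aaaaccggaatGAACTTTTTtgg

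PC-3p-30695_14 has the seed of bta-miR-2285b, with 4 reads in collapsed lung and 10 in normal lung. PC-3p-97881_4 has the seed of bta-miR-2285f, with 3 reads in collapsed lung and 7.5 in normal lung, and PC-3p-29124_14 that of bta-miR-2285k, with 6 reads in collapsed lung and 9 in normal lung. The log2 ratio was -0.63 for PC-3p-30695_14 and PC-3p-97881_4 and 0.10 for PC-3p-29124_14, and none was called.

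**Figure D3:**
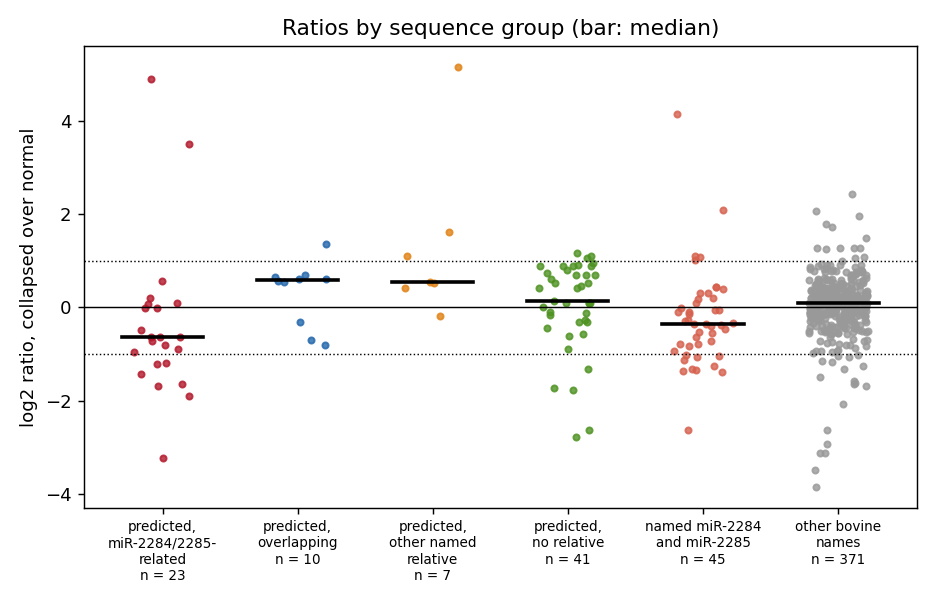
The log2 ratio of collapsed to normal lung (y axis) for each name, in the 4 groups of predicted miRNAs and, for comparison, in rows named miR-2284 or miR-2285 and in other bovine names, counted once per name. Bars are medians, dotted lines mark a ratio of 2 in either direction, and a name at 0 reads in a library is drawn with 0.5 read added. The members related to miR-2284 and miR-2285 lie mostly below 0 around a median of -0.63, apart from the pair at 4.89 and 3.50.

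The 10 overlapping members held the most reads of the 4 groups, 1297.5 in collapsed lung (460 RPM) and 1507 in normal lung (331 RPM). PC-3p-2267_196, the most abundant predicted miRNA, had 423.5 reads in collapsed lung and 470 in normal lung, a ratio of 1.45 (1.27 to 1.66). PC-3p-2266_188 had 254.5 reads in collapsed lung and 267.5 in normal lung, a ratio of 1.53 (1.29 to 1.83). Both were higher in collapsed lung beyond counting error and below the 2-fold threshold.

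The starts of these sequences do not coincide. They share 19 bases, PC-3p-2267_196 began 3 bases after PC-3p-2266_188, and their seeds differ. Among 169 pairs of named sequences outside miR-2284 and miR-2285 that share at least 12 bases, 154 (91.1%) began within 1 base of each other and 8 (4.73%) began 3 or more bases apart. A shared 5′ end is usual for miRNAs, whose first base is set by the cut of Drosha or Dicer. The named pairs include variants of the same miRNA under names of other species, so that they do not show how these members arose. Whether these sequences also occur in other kinds of RNA was not tested, because no bovine genome or RNA sequences were used here.

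The next overlapping pair had one 5′ end and went the other way. The capitals mark the shared run, in which the seed CGAGCCT of both begins.
PC-3p-4787_84: cCGAGCCTGACAGATCACACA
PC-3p-42697_9: tCGAGCCTGACAGATCACACAc

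PC-3p-4787_84 had 68 reads in collapsed lung and 177.5 in normal lung on each of its 2 rows (24.1 RPM in collapsed and 39.0 RPM in normal lung). It was 1.62-fold lower in collapsed lung (1.22 to 2.18), beyond counting error and short of the threshold. PC-3p-42697_9, which has the same letters apart from its end bases, had 8 reads in collapsed lung and 22.5 in normal lung, a ratio of 0.573 (0.217 to 1.30). Both lay on the lower side in collapsed lung, unlike PC-3p-2267_196 and PC-3p-2266_188.

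PC-5p-9413_44 and PC-5p-10826_42 share 14 bases, with starts 6 bases apart. The first had 86.5 reads in collapsed lung and 93.5 in normal lung, a ratio of 1.49 (1.10 to 2.02), and the second 86 reads in collapsed lung and 88 in normal lung, a ratio of 1.58 (1.16 to 2.15). Both ratios were close to those of PC-3p-2267_196 and PC-3p-2266_188.

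The last overlapping set held the group's 1 call. PC-5p-19984_23 had 17.5 reads in collapsed lung and 11 in normal lung, 2.56-fold higher in collapsed lung (1.18 to 6.18). Its relatives PC-5p-16366_26, of the same seed GTTTCCC, and PC-5p-64848_5 were not called, with 13 reads in each library for the first and 5 reads in collapsed and 10 in normal lung for the second. The sequences show how close the 3 are, with capitals on the run shared with PC-5p-19984_23, or for that member with PC-5p-64848_5.
PC-5p-19984_23: cgtTTCCCGGCCAATGCACC
PC-5p-16366_26: CGTTTCCCGGCCcatgcacca
PC-5p-64848_5: tcTTCCCGGCCAATGCACCa

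A further 7 members share letters with a named miRNA outside miR-2284 and miR-2285. They are shown with the named sequence because the overlap bears on whether they are separate miRNAs. The capitals mark the shared run, which for PC-3p-76797_4 is the complement of the run in bta-miR-194.
PC-3p-76797_4: CACATGGAGTTGCTGTTACAat
bta-miR-194: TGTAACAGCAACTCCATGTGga
PC-3p-56469_7: TGGTGCTCCCTGGAGCTGAGCa
bta-miR-7862: TGGTGCTCCCTGGAGCTGAGC
PC-3p-33659_12: CCCCCACTTGCATGACCCTGAgt
bta-miR-2431-3p: caCCCCCACTTGCATGACCCTGA
PC-5p-50023_8: CAAAGAATTCTCCTTTTaaa
bta-miR-186: CAAAGAATTCTCCTTTTgggct
PC-5p-43626_9: tgagGTAGTTTGTGCTGTT
bta-let-7i: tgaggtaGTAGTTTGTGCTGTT

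PC-3p-76797_4 was the only member with no reads in a library. It had 10.5 reads in collapsed lung (3.72 RPM) and 0 in normal lung, a count that allows up to 0.659 RPM, which is at least 5.64-fold higher in collapsed lung if its 10.5 reads are taken as exact and set against the floor of 3 reads in the normal-lung library. The lower bound of its 95% interval, which counts the error of both libraries, was 4.05. It is the complement of bta-miR-194, a miRNA of epithelium and liver, over 20 bases. bta-miR-194 itself stood at 269 RPM in collapsed lung and 235 RPM in normal lung, a log2 ratio of 0.19, and was not called.

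PC-3p-39956_10 was the other call of this group, with 19 reads in collapsed lung and 10 in normal lung, 3.06-fold higher in collapsed lung (1.36 to 7.38). Its relative is the complement of a row of 16 nt named for a mouse miRNA, which had 0 reads in collapsed lung and 1 in normal lung. Its last 3 letters are CCA, as in 5 of the 81 members (6.17%) and 10 of the 647 established sequences (1.55%). The other members that end so are PC-3p-2918_138, PC-3p-9592_48, PC-5p-16366_26 and PC-5p-64848_5.

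The other members of the group had intervals that include 1. PC-3p-56469_7 holds the whole of bta-miR-7862 and 1 base more, and had 9 reads in collapsed lung and 10 in normal lung beside 16 in collapsed and 20 in normal lung for the named row. PC-3p-33659_12 began 2 bases after bta-miR-2431-3p, and had 6 reads in collapsed lung and 11 in normal lung, beside 19 in collapsed and 30 in normal lung for that row. In these pairs predicted and named sequence had reads of the same order, and how reads were divided between them is uncertain.

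PC-5p-50023_8 begins as bta-miR-186 does, a common miRNA at 4933 RPM in collapsed lung and 6388 RPM in normal lung, and shares its first 17 bases. It had 8 reads in collapsed lung and 9 in normal lung. PC-5p-43626_9 has the let-7 seed GAGGTAG and shares 15 bases with bta-let-7i, and had 8 reads in collapsed lung and 6 in normal lung. bta-let-7i stood at 10703 RPM in collapsed and 8430 RPM in normal lung. PC-5p-14346_30 has the seed of bta-miR-450b and shares its first 14 bases, with 7 reads in collapsed lung and 8.5 in normal lung on each of its 2 rows. All 3 had at most 9 reads in a library, beside relatives among the common miRNAs of the table.

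The 41 members with no relative in the table gave 0 calls in either direction, beside 8.24% called either way among all 813 rows. Of the 41, 39 had under 100 reads over both libraries, so that 0 calls says little about them. Their median log2 ratio was 0.14, or -0.02 with median-of-ratios scaling. The most abundant of them, PC-3p-2918_138, had 228 reads in collapsed lung and 345 in normal lung (80.8 RPM in collapsed and 75.8 RPM in normal lung), a ratio of 1.07 (0.897 to 1.26). PC-3p-10824_40 had 51 reads in collapsed lung and 47 in normal lung, a ratio of 1.75 (1.15 to 2.66). PC-5p-10385_45, at 18 nt among the shortest, had 35 reads in collapsed lung and 34 in normal lung, a ratio of 1.66 (1.01 to 2.74). PC-3p-9592_48 had 31.5 reads in collapsed lung and 27 in normal lung on each of its 2 rows, a ratio of 1.88 (1.11 to 3.32). The last 3 were higher in collapsed lung beyond counting error by less than 2-fold when scaled to all reads, and the shift of -0.16 under median-of-ratios scaling takes the lower bounds of PC-5p-10385_45 and PC-3p-9592_48 below 1. PC-3p-2918_138 could not be told from 1.

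PC-3p-16898_25, with 26 reads in collapsed lung and 39 in normal lung, and PC-5p-16648_27, with 22 reads in collapsed lung and 43 in normal lung, had ratios of 1.07 (0.628 to 1.81) and 0.825 (0.470 to 1.41). Neither could be told from 1.

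**Figure D4:**
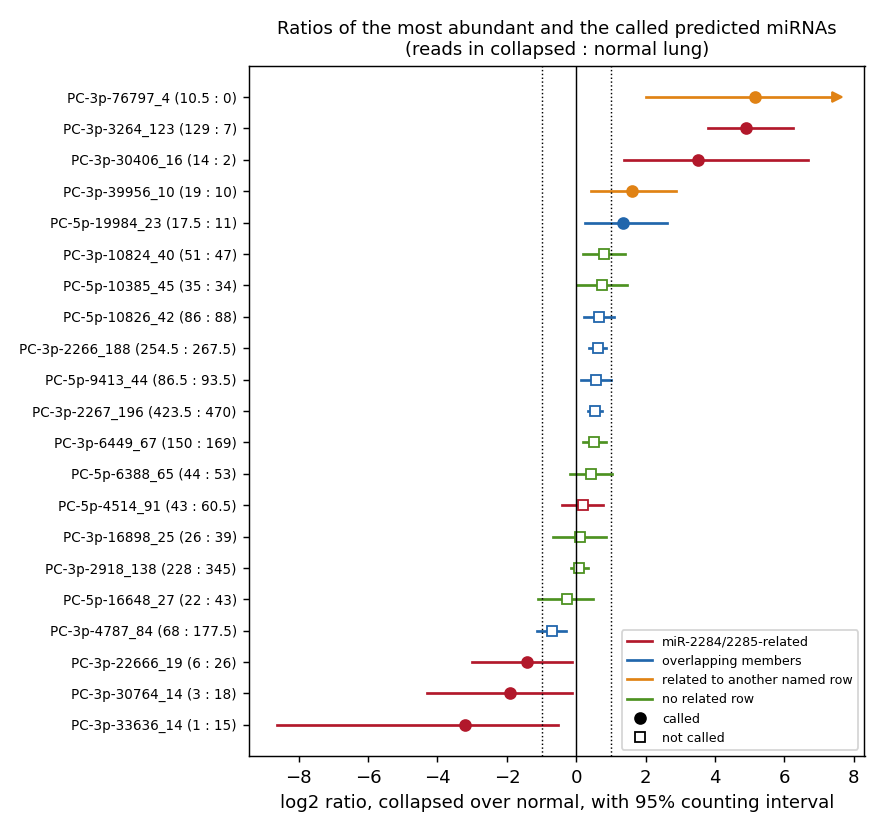
The log2 ratio of collapsed to normal lung (x axis) with its 95% counting interval for 14 of the 15 members with the most reads and every called member, with the reads in collapsed and normal lung beside each name. Filled circles are called and open squares are not, and dotted lines mark a ratio of 2 in either direction. PC-3p-76797_4, at 0 reads in normal lung, is drawn with 0.5 read added and an interval without an upper end. Called members lie outside the dotted lines, as the call requires, mostly on wide intervals. Of the most abundant members drawn, PC-3p-3264_123 is called and lies outside them. The other abundant members lie inside them, on intervals that widen as reads fall.

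One pair of members can pair as the arms of a hairpin do. PC-5p-6388_65 had 44 reads in collapsed lung and 53 in normal lung, a ratio of 1.34 (0.877 to 2.03), and PC-3p-6449_67 had 150 reads in collapsed lung and 169 in normal lung, a ratio of 1.43 (1.14 to 1.79). The capitals mark a run of 10 bases in which one is the complement of the other.
PC-5p-6388_65: aagtacAGGATGCCCAatgaat
PC-3p-6449_67: tcacTGGGCATCCTctgcttta

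Folded against each other by RNAduplex, these members formed 18 base pairs at -26.1 kcal/mol, with 2 unpaired bases at the 3′ end of each strand. Such 3′ overhangs are what Drosha and Dicer leave. For comparison, 98 named precursors with both arms in the table had a median duplex energy of -21.75 kcal/mol (quartiles -24.8 and -17.6) and a median of 16 base pairs, and 61 of the 98 (62.2%) had overhangs of 1 to 3 bases at both ends. The pair was picked for its complementary run of at least 10 bases, which favours many base pairs and a low energy. The named precursors were not picked in this way, so the comparison does not show that the pair came from a hairpin. The 3p strand was the more abundant in collapsed and in normal lung, and the ratios of the arms lay inside each other's intervals.

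A complementary run of this length was rare between predicted sequences of opposite arms. Members outside miR-2284 and miR-2285 were each combined with every predicted row of the other arm. Of 26124 combinations, 13 (0.0498%) had a run of at least 10 bases, the pair above counted from either side. Of the 98 named precursors 15 (15.3%) had one. These shares are unlike measures, the first over all combinations and the second over both arms of one precursor. The share between arms of different named precursors was not measured. PC-3p-10824_40 matched a predicted 5p row with 0 reads in collapsed lung and 2 in normal lung, in 21 base pairs at -41.7 kcal/mol with 1 unpaired base at each 3′ end. PC-5p-61940_6, with 4 reads in collapsed lung and 7 in normal lung, matched a 3p row with 1 read in collapsed lung and 3 in normal lung in 19 base pairs, with 3 unpaired bases at each 3′ end. PC-5p-93608_3, with 1 read in collapsed lung and 11 in normal lung, matched a 3p row with 0 reads in collapsed lung and 2 in normal lung in 17 base pairs at -27.9 kcal/mol, with 1 and 2 unpaired bases at the 3′ ends. PC-3p-53192_7 matched a row in 17 base pairs that left 5 unpaired bases at each 3′ end. The remaining matches also lacked 1 to 3 unpaired bases at both 3′ ends. PC-3p-158917_2, PC-3p-65680_6 and PC-5p-25482_17 matched rows in only 10 base pairs, and PC-5p-16366_26 matched a row in 12. PC-3p-101625_3 matched a row in 20 base pairs and PC-3p-2918_138 a row in 17, with neither 3′ end overhanging.

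In length the members were close to known miRNAs with a wider lower end. The median was 22 nt and the range 18 to 27 nt, and 61 of 81 (75.3%) were 21 to 23 nt long, against 86.1% of the 647 established sequences. Sequences of 20 nt or less made up 16 of the 81 (19.8%), against 8.04%. Among the 10 overlapping members only 4 were 21 to 23 nt long. A T stood first in 29 of the 81 (35.8%), against 37.7% of established sequences and 44.6% of bovine names outside miR-2284 and miR-2285.

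**Figure D5:**
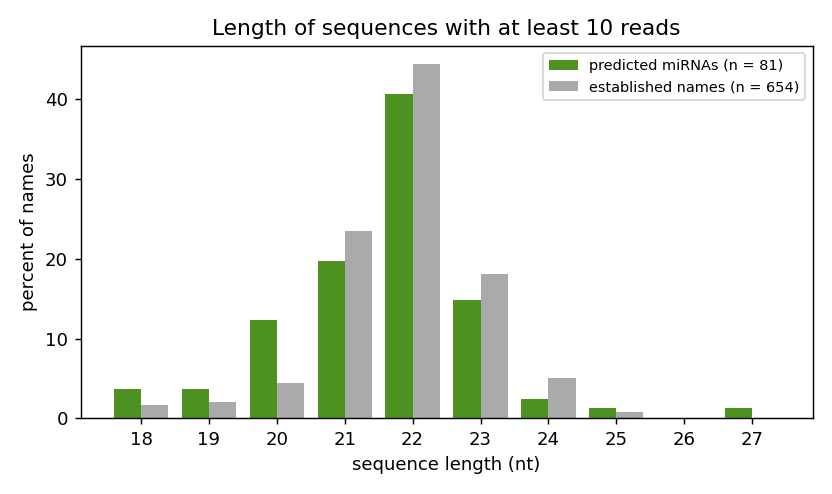
Percent of names (y axis) at each sequence length in nt (x axis), for the 81 predicted miRNAs in green and 654 established names of at least 10 reads in grey. Both peak at 22 nt, with 40.7% and 44.5% of names, and the predicted miRNAs have more at 20 nt, 12.3% against 4.43%.

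The minimum of 10 reads was met by a small margin in some members. Just inside it, PC-3p-74843_4 had 5 reads in each library, PC-5p-51655_7 had 4 in collapsed and 6 in normal lung, and PC-5p-73093_5 had 2 in collapsed and 8 in normal lung. Just outside it, at 9 reads, PC-3p-47950_9, PC-3p-56937_7 and PC-5p-106531_3 had 4 reads in collapsed and 5 in normal lung each, and PC-3p-95511_3 had 3 in collapsed and 6 in normal lung. At the minimum of 18 nt, PC-5p-25482_17 had 13 reads in collapsed and 26 in normal lung and PC-3p-39228_10 had 1 in collapsed and 10 in normal lung. Of the rows of 17 nt, PC-5p-61162_7 had 9 reads in collapsed and 0 in normal lung, and PC-5p-166570_2 had 5 in collapsed and 1 in normal lung.

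The authors' deposited table sets 9 of the members apart as different between the libraries, 4 up and 5 down. Of these, 7 are called here, and 1 member called here, PC-3p-76797_4, is not among them. In the authors' deposited table PC-3p-3264_123 has a fold change of 27.2, collapsed over normal, from their own scaling. PC-5p-93608_3, with 1 read in collapsed lung and 11 in normal lung, and PC-3p-39228_10 are down in the authors' deposited table, and were not called here because their intervals reach 1.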

How the data were processed

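Small RNA of 2 pooled lung samples was sequenced, per the labels' protocols after Trizol extraction and TruSeq library preparation. Per the file headers, the authors deposited raw read counts per named sequence. These estimated counts were not all whole: 84.3% of rows were whole in collapsed lung and 84.5% in normal lung. The authors also deposited a signal of normalized reads, its ratio as a fold change, the log2 of that ratio and p-values, of which the p-values serve as no evidence here. Per the submitters' processing notes bosTau8 was the genome build. The sources used here name no aligner, trimming step or prediction software, and no coordinates are given. The table's 2 emptied lines were not analysed here.

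Reads were scaled to RPM of the table totals. The ratio, collapsed over normal, has an exact conditional binomial 95% interval on reads rounded to whole numbers. Where a library had 0 reads, 0.5 read was added to both. Intervals and floors cover counting error only, since PCR reads without molecular identifiers are not independent molecules. The ratio and its interval were tested on simulated data. Runs of shared bases and duplexes were computed with Python 3.11.15, SciPy 1.17.1 and ViennaRNA 2.7.2. The named members are the 15 most abundant (1 of which is counted with the members and not reported here by itself), those called, those at 0 reads, those next to the minimums, and up to 4 per shared sequence or seed. The members and lists were chosen with earlier results of these data known. The alternatives tried were other scalings, read and length minimums, fold thresholds, merged rows and added reads.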

Additional observations from a re-analysis of the deposited data

How the results depend on the processing

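The main values were 5 members called higher in collapsed lung, 3 called lower and a median log2 ratio of 0.10. Median-of-ratios, trimmed mean and the authors' normalized columns shifted every log2 ratio by -0.16, -0.12 and -0.13. Each of these scalings gave 5 higher and 5 lower calls, adding PC-5p-131333_2 and PC-5p-93608_3 to the lower ones, and turned the median to -0.05, -0.01 and -0.02. The median of the members related to miR-2284 and miR-2285 stayed negative under these 3 scalings (-0.79, -0.75 and -0.76) and that of the other 58 stayed positive (0.34, 0.38 and 0.36), while that of the 41 without a relative was -0.02, 0.02 and 0.01. A minimum of 50 reads left 20 rows with 1 higher and 0 lower call and a median of 0.56. With no read minimum, 938 rows gave 10 higher and 3 lower calls and a median of -0.10, a smaller share called than with the minimum. Among the 88 rows, a fold threshold of 1.5 gave 12 higher and 5 lower calls (11 and 4 names), and a threshold of 4 gave 3 higher and 1 lower. The shares called among all rows of the table under these settings are not given here, so these counts have no background beside them. Adding 5 reads, dropping the length minimum and merging identical sequences each left 5 higher and 3 lower calls, and summing the rows of a name, chosen after seeing the data, gave 5 and 4. All 8 called members kept their call under the 3 scalings and the added reads. No paired analysis was possible because each phenotype has only 1 library. Depth limits most members: the counting interval reached a median of 1.63 on the log2 scale to either side, so that a 2-fold difference was not detectable in a typical member.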

Other observations

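The predicted rows below the minimums were scarcer still. The 872 rows of at least 18 nt with fewer than 10 reads had a median of 2 reads over both libraries; 333 of them had 0 reads in collapsed lung and 188 had 0 in normal lung, the more deeply read library. They summed to 798 reads in collapsed lung (283 RPM) and 1205.5 in normal lung (265 RPM). Of their 815 sequences, 112 (13.7%) shared at least 12 bases with a row named miR-2284 or miR-2285, against 28.4% of the 81 members, and 58.8% were 21 to 23 nt long, against 75.3%. The 15 predicted rows under 18 nt had 29.5 reads in collapsed lung and 9.5 in normal lung.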
